A study of Mus musculus with 12 samples.

Results

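The genes of the proteasome were followed in bulk RNA libraries from mouse liver cells. The members were the rows of the count table whose symbol begins with Psm, then a letter from a to g, then a number, with an optional a or b at the end. There were 43 such rows among the 25919 of the table, and 41 of them had enough counts to be tested. Rows were picked by gene name, but the rule was set with earlier results of these data known. Psmb6, Psmb8 and Psmb9 are not analysed here, so Psmb10 is the immunosubunit described.

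The proteasome is the protease that degrades proteins marked with ubiquitin. Its core particle is a barrel of outer alpha rings (Psma genes) and inner beta rings (Psmb genes), and the catalytic sites sit in the beta rings. A regulatory particle of ATPases (Psmc) and other subunits (Psmd) recognises and unfolds the substrate. Interferon is known to induce the immunosubunits Psmb8, Psmb9 and Psmb10, which replace catalytic beta subunits in newly built particles, together with the activator PA28 (Psme1 and Psme2). The altered particle is known for cutting peptides that are loaded on MHC class I molecules, and macrophages and other antigen-presenting cells are known to hold much of it.

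The mice were C57BL/6 and 7 weeks old. Kupffer day 0 (2 libraries, a and b) carries the cell type Kupffer cells, the macrophages resident in the liver, and day 0. CD40 day 2 (4 libraries, a to d) carries CD40, the name of a receptor found on antigen-presenting cells, in place of a cell type, and day 2. No treatment, sort or starting event for the days is named for these groups, and the series' title speaks of whole liver. Another day 2 group of the series is titled Ly6c and CD40negative. The titles do not say how that group and CD40 day 2 were separated. Nothing ties a library to its own mouse, although the series' design text speaks of biological replicates, so the spread behind each p-value is that of these libraries and may be technical. Label and day change together, and their parts in any difference cannot be told apart.

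Total counts ran from 688498 to 2271228 per library. CPM, the usual scaling of counts to a common library total, was computed with totals adjusted by TMM, which corrects for differences in composition between libraries. CPM was not divided by transcript length, and levels are compared between groups and not between genes. Cd40 was at 20.1 and 18.1 CPM in Kupffer day 0 and at 382, 375, 340 and 225 CPM in CD40 day 2, and Clec4f, a defining Kupffer cell gene, was at 1130 and 1020 CPM in Kupffer day 0 and at 19.1, 21.2, 14.6 and 13.7 CPM in CD40 day 2. The marker counts that follow stand beside 23.2% of all genes tested called higher and 30.2% called lower. Of 10 Kupffer cell markers tested, 8 fell, and the list of 11 took 0.474% and 0.406% of counts in Kupffer day 0 and 0.012% to 0.0248% in CD40 day 2, with Xlr3b at 0 in all 6 libraries. All 12 endothelial markers fell (2.16% and 2.3% against 0.0708% to 0.121% of counts), as did all 8 stellate and fibroblast markers tested (0.181% and 0.148% against 0.00345% to 0.0118%, with Col1a1 at 3 counts in each Kupffer library and 0 in CD40 day 2). Of 10 classical monocyte markers 8 rose (0.176% and 0.152% against 1.63% to 2.21%). Of 8 hepatocyte markers tested 1 rose and 5 fell (0.0691% and 0.154% against 0.0814% to 0.225%), and of 9 neutrophil markers 1 rose and 1 fell (0.0973% and 0.332% against 0.0999% to 0.177%). None of 3 T and NK cell markers tested passed (0.0241% and 0.0234% against 0.022% to 0.0278%), and 1 of 2 B cell markers tested fell (0.00577% and 0.106% against 0.00484% to 0.011%, with Cd79a at 1 and 0 counts in the Kupffer libraries and 0 in CD40 day 2). The Kupffer, endothelial, stellate and monocyte lists move with each result given here, and their part in the results was not tested. In bulk RNA fewer cells of a type and less RNA per cell cannot be told apart.

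Promoters are shown first for Psme2, Psme1 and Psmb10, the members with the largest rise and those that interferon is known to induce. Each stretch is the 250 bases before the RefSeq start site in GRCm38.p6, 5′ to 3′ on the gene's strand, and none holds either of the interferon motifs searched. Psme2 has a further start site, not shown. GENCODE begins Psme1 upstream of this start, at 55578123, so its stretch lies within the GENCODE gene. The stretches of Psme2 and Psmb10 overlap the first bases of theirs.
Psme2 (chr14:55591102-55591351, minus strand): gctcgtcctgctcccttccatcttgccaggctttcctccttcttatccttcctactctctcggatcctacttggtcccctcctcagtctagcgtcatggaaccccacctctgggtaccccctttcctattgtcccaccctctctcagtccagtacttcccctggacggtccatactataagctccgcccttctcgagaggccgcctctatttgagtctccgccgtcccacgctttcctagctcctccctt
Psme1 (chr14:55578244-55578493, plus strand): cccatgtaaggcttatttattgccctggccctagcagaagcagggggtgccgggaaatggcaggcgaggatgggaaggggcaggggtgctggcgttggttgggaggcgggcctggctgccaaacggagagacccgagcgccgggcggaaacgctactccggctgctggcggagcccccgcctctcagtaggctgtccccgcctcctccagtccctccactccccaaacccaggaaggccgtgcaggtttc
Psmb10 (chr8:105938393-105938642, minus strand): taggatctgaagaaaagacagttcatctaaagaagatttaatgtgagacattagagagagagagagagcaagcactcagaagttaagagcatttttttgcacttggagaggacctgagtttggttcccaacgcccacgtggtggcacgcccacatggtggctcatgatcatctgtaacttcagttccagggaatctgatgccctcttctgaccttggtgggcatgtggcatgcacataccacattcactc

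The motif search covered 300 bases per start site (250 before and 50 after it) for the 35 members with an entry in the RefSeq table, on both strands. The core of the interferon-stimulated response element was searched as GAAA, any 2 bases, GAAA, and the gamma-activated site as TTC, any 3 bases, GAA. The antioxidant response element, to which Nfe2l1 and Nfe2l2 bind, was searched as TGAC, any 3 bases, GC. The NF-kappaB consensus was searched as well. The first stood in windows of 5 members (14.3%), against 3.44% of all 32851 windows. The gamma-activated site stood in 1 (2.86% against 8.3%), the antioxidant core in 5 (14.3% against 12.4%) and the NF-kappaB consensus in 6 (17.1% against 8.46%). In no member did matches to different motifs overlap. A gene with several start sites has several windows, so the shares of genes and of windows are not on the same base, and a match describes letters, not a binding site.

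The 5 matches to the interferon-stimulated response element core are shown with 10 bases on each side, 5′ to 3′ on the gene's strand, because the members that hold them differ in how they moved. Capitals mark the match, and one on the opposite strand reads as TTTC, 2 bases, TTTC.
Psme1 (chr14:55578493-55578522, plus strand): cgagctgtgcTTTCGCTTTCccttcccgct
Psmg4 (chr13:34162969-34162998, plus strand): gcgcgcatctGAAAGTGAAAgagcgttccg
Psmb3 (chr11:97703261-97703290, plus strand): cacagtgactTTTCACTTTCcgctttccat
Psmd4 (chr3:95042675-95042704, minus strand): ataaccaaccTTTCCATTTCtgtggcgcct
Psmd9 (chr5:123228021-123228050, plus strand): gggacagaatGAAAAAGAAAggaatgaaca
The matches of Psme1 and Psmg4 lie 10 to 19 and 16 to 25 bases into the RefSeq transcript. Those of Psmd4, Psmd9 and Psmb3 lie before the RefSeq start, at -80 to -71, -159 to -150 and -163 to -154. GENCODE, the source of the gene coordinates, begins Psme1 at 55578123 and Psmd9 at 123169413. By those starts the matches of both lie within the gene. Psme1, Psmg4, Psmb3 and Psmd4 rose in CD40 day 2, as did 70.7% of all members tested, and Psmd9 did not pass the test.

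Proteasome genes stood mostly higher in CD40 day 2. Of the 41 members tested, 29 rose and 1 fell (edgeR quasi-likelihood test, adjusted p under 0.05 over all genes tested), with a median log2 fold change of 0.87. Among all 9852 genes tested 53.4% were called, 23.2% as higher and 30.2% as lower, with a median of -0.1, whereas 70.7% of the members were higher and 2.44% lower. The libraries of the groups did not overlap for 33 members that stood higher, where 29.7% of all genes did so, and for 3 that stood lower, where 36.9% did. Together the 43 rows took 0.715% and 0.679% of counts in Kupffer day 0 and 1.57%, 1.59%, 1.44% and 1.29% in CD40 day 2 a to d. All 4 CD40 day 2 shares lay above both Kupffer shares. Without Kupffer day 0 a, which leaves 1 Kupffer library assumed to vary like the CD40 ones, 20 members were higher and 0 lower, beside 14.4% of all genes higher.

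**Figure D1:**
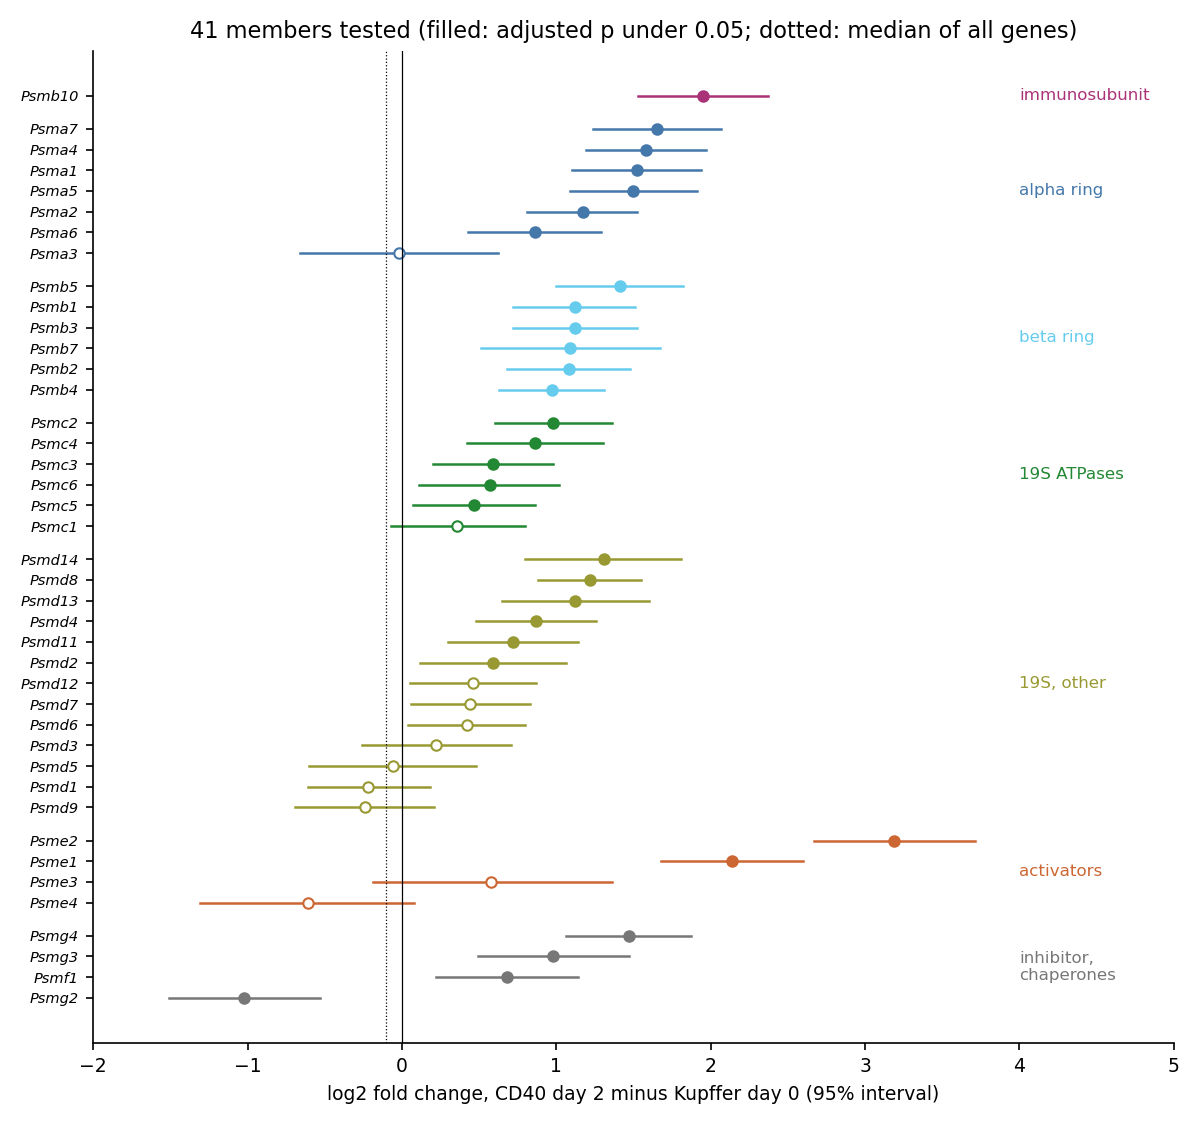
Log2 fold change of each of the 41 members tested, CD40 day 2 (n = 4) minus Kupffer day 0 (n = 2), with its 95% interval from the edgeR fit, grouped by part of the proteasome (19S is the regulatory particle). Filled points passed the test, and the dotted line is the median of all genes tested, -0.1. The alpha and beta rings lie to the right of 0 except Psma3, the Psmc and Psmd genes mostly lie closer to 0, and Psme2 stands farthest right.

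The activator PA28 showed the largest rises of the family. PA28 is a ring that caps the core particle and opens its gate, and Psme1 and Psme2 encode its alpha and beta chains. Psme2 (chromosome 14, 55587441 to 55591113, GRCm38) was at 113 and 110 CPM in Kupffer day 0 and at 1170, 1140, 993 and 768 CPM in CD40 day 2. Its log2 fold change was 3.19 ± 0.23 (SE), or 9.11-fold (edgeR adjusted p = 4.03e-06). Psme1 (chromosome 14, 55578123 to 55581529) was at 246 and 228 CPM in Kupffer day 0 and at 1080, 1280, 971 and 859 CPM in CD40 day 2, a log2 fold change of 2.14 ± 0.21 (edgeR adjusted p = 2.29e-05). Neither gene's groups overlapped, and in both the lowest CD40 day 2 library was d. By log2 fold change, Psme2 was number 253 and Psme1 number 653 of the 9852 genes tested. Both were called under all 14 alternatives run, with log2 fold changes of 3.02 to 3.3 for Psme2 and 1.98 to 2.22 for Psme1.

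Psme1 and Psme2 lie 5911 bases apart, and the genes around them are given for comparison. Between them lies Emc9, of an endoplasmic reticulum membrane complex, which was at 21.2 and 15.3 CPM in Kupffer day 0 and at 17.3, 24, 20 and 19.7 CPM in CD40 day 2 (log2 fold change 0.08 ± 0.28, edgeR adjusted p = 0.936). Beyond Psme2 follow Rnf31, of the linear ubiquitin chain complex (0.66 ± 0.26, edgeR adjusted p = 0.0595), and Irf9, the DNA-binding part of the interferon-stimulated gene factor (0.08 ± 0.2, edgeR adjusted p = 0.767). On the other side Dcaf11, a ubiquitin ligase adaptor, had a log2 fold change of 0.18 ± 0.19 (edgeR adjusted p = 0.446). None of these 4 neighbours passed the test, where 53.4% of all genes did. For Rnf31 and Dcaf11 every CD40 day 2 library lay above both Kupffer libraries, as in 29.7% of all genes tested. The groups overlapped for Emc9 and Irf9. Emc9 overlaps the end of Psme1 on the opposite strand, and whether the counting used strand is not stated.

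The other activators did not pass. Psme3 encodes PA28 gamma, a nuclear activator, and was at 10.3 and 13.9 CPM in Kupffer day 0 and at 18.2, 24, 14.6 and 16.1 CPM in CD40 day 2 (log2 fold change 0.58, 95% interval -0.19 to 1.36, edgeR adjusted p = 0.178). Psme4, a large single-chain activator, was at 18.4 and 27.9 CPM in Kupffer day 0 and at 12.7, 11.3, 15.5 and 16.7 CPM in CD40 day 2 (-0.61, 95% interval -1.31 to 0.08, edgeR adjusted p = 0.122). The libraries of the groups do not overlap for either gene, Psme3 being higher and Psme4 lower in CD40 day 2. Both intervals include 0, and the counts were 8 to 34 per library. Psme2b, a Psme2-like row on chromosome 11, had 0 counts in all 6 libraries, which allows up to 1.37 to 4.24 CPM, depending on the library (3 counts). How reads shared by Psme2 and Psme2b were assigned is not stated. That limit covers counting error only, and if reads rather than molecular identifiers were counted they are not independent molecules.

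Psmb10 was the immunosubunit measured. It encodes the subunit that replaces Psmb7, the trypsin-like catalytic site. Psmb10 (chromosome 8, 105935735 to 105938444) was at 258 and 286 CPM in Kupffer day 0 and at 1110, 866, 1180 and 1050 CPM in CD40 day 2. The log2 fold change was 1.95 ± 0.19 (3.87-fold, edgeR adjusted p = 2.21e-05), with no overlap and the lowest CD40 day 2 value in library b. It was called under all 14 alternatives run (1.79 to 2.1). The gene overlaps Gm16156 on the opposite strand.

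Its constitutive partner also rose. Psmb7 was at 41.9 and 46 CPM in Kupffer day 0 and at 65.5, 120, 99.7 and 88.8 CPM in CD40 day 2 (log2 fold change 1.09 ± 0.26, edgeR adjusted p = 0.00554), with libraries a and b at the ends of the CD40 range. This call was lost without Kupffer day 0 a (edgeR adjusted p = 0.0775) and when libraries were thinned to the smallest total (0.0607, range over the alternatives 0.000271 to 0.0775). The log2 ratio of Psmb10 to Psmb7 counts was 2.62 in both Kupffer day 0 libraries and 4.07, 2.84, 3.56 and 3.55 in CD40 day 2 a to d. The mean log2 ratio was 0.89 higher in CD40 day 2 (exact two-sided permutation test over libraries, p = 0.2, with 15 splits and a smallest possible p of 0.0667). The ratio was higher in 4 of 4 CD40 day 2 libraries, least in b, and the design cannot reach 0.05. Of the 3 pairs planned, 1 could be measured. Psmb5, the chymotrypsin-like site, was at 56.3 and 47.4 CPM in Kupffer day 0 and at 150, 140, 138 and 130 CPM in CD40 day 2 (log2 fold change 1.41 ± 0.18, edgeR adjusted p = 0.00015).

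**Figure D2:**
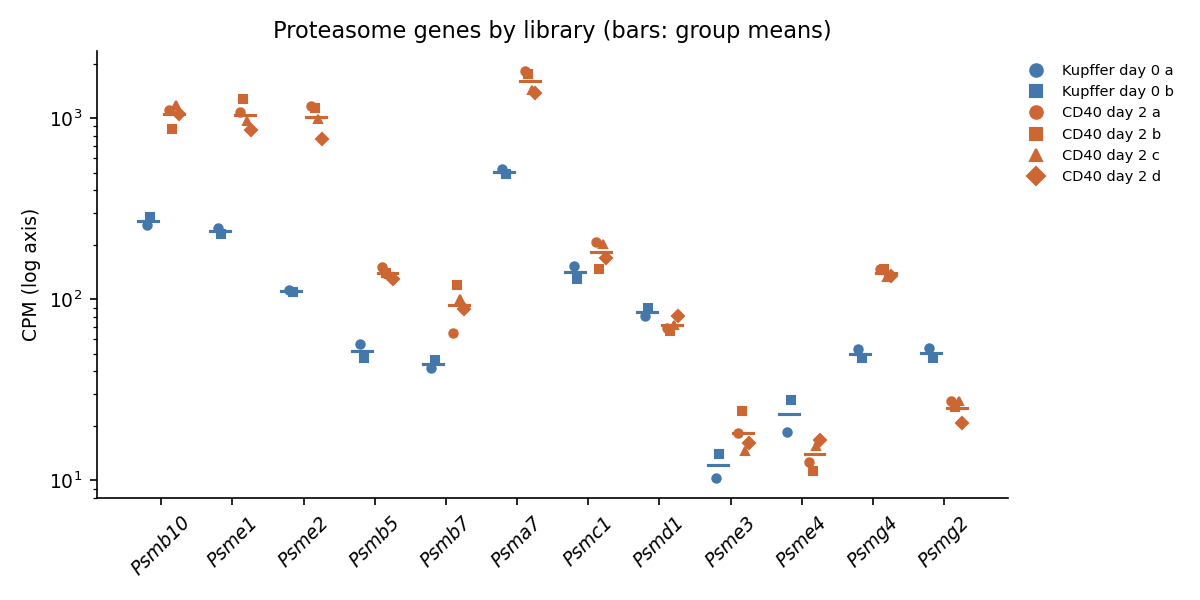
CPM (log axis) of 12 members in each library of Kupffer day 0 (2, blue) and CD40 day 2 (4, orange), with symbols for libraries a to d and bars at the group means. Psmb10, Psme1, Psme2, Psmb5, Psmb7, Psma7, Psme3 and Psmg4 are higher in all CD40 day 2 libraries, Psmg2 and Psme4 are lower in all of them, and the groups overlap for Psmc1 and Psmd1.

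The beta subunits without a catalytic site moved by similar amounts. Of 6 constitutive Psmb genes with a row, 6 rose (100%, beside 23.2% of all genes). Their log2 fold changes lay between 0.97 (Psmb4) and 1.41 (Psmb5), with a median of 1.1. Psmb1 was at 424 and 407 CPM in Kupffer day 0 and at 975, 1030, 790 and 818 CPM in CD40 day 2 (1.12 ± 0.18, edgeR adjusted p = 0.0005). Psmb3 stood at 176 and 150 against 390, 395, 329 and 318 CPM (1.12 ± 0.18, edgeR adjusted p = 0.000533). Psmb2 stood at 544 and 496 against 1300, 1070, 1090 and 942 CPM (1.08 ± 0.18, edgeR adjusted p = 0.000669), and Psmb4 at 246 and 253 against 493, 460, 513 and 485 CPM (0.97 ± 0.15, edgeR adjusted p = 0.000478). In each of the 6 every CD40 day 2 library lay above both Kupffer libraries, as in 29.7% of all genes tested.

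The alpha ring, which forms the gate of the barrel, had 1 exception to its rise. Of 7 Psma genes tested, 6 rose (85.7%, beside 23.2% of all genes), with a median log2 fold change over the 7 of 1.5. Psma7 was at 524 and 489 CPM in Kupffer day 0 and at 1820, 1750, 1430 and 1380 CPM in CD40 day 2 (1.65 ± 0.19, edgeR adjusted p = 6.15e-05). Psma4 stood at 184 and 149 against 529, 532, 479 and 466 CPM (1.58 ± 0.17, edgeR adjusted p = 5.09e-05), and Psma1 at 230 and 208 against 735, 666, 590 and 533 CPM (1.52 ± 0.19, edgeR adjusted p = 0.000109). Psma5 and Psma2 rose by 1.5 and 1.17 on the log2 scale. Psma6 had the smallest rise, at 304 and 312 against 670, 593, 536 and 444 CPM (0.86 ± 0.19, edgeR adjusted p = 0.00404), and it was not called without Kupffer day 0 a (0.0504, range over the alternatives 0.000322 to 0.0504). Library d was the lowest of the CD40 day 2 libraries for each of these 6.

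Psma3, a subunit of the same ring, did not pass. It was at 33.9 and 52.9 CPM in Kupffer day 0 and at 54.6, 42.4, 39.6 and 31 CPM in CD40 day 2, with overlap between the groups (log2 fold change -0.02, 95% interval -0.66 to 0.62, edgeR adjusted p = 0.966). The upper end of that interval lies below the estimate for each of the other 6 alpha genes tested, but the difference itself was not tested. The gene overlaps 3110056K07Rik on the opposite strand. Psma8, known from the testis form of the particle, had too few counts for the test, namely 10 and 5 in the Kupffer libraries and 1, 1, 3 and 0 in CD40 a to d. It entered the test when CD40 day 2 a, CD40 day 2 b or Kupffer day 0 b was left out, and 1, 1 and 0 Psma genes were then lower.

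The Psmc and Psmd genes moved less than the Psma and Psmb genes. Of 14 Psma and Psmb genes tested, Psmb10 included, 13 rose (92.9%, median log2 fold change 1.15), and of 19 Psmc and Psmd genes 11 rose (57.9%, median 0.57), beside 23.2% of all genes. Core genes took 0.394% and 0.368% of counts in Kupffer day 0 and 0.934%, 0.909%, 0.846% and 0.764% in CD40 day 2. Psmc and Psmd genes took 0.26% and 0.254% against 0.395%, 0.411%, 0.373% and 0.341%. The log2 ratio of the core sum to the Psmc and Psmd sum, which does not depend on scaling, was 0.6 and 0.54 in Kupffer day 0 and 1.24, 1.15, 1.18 and 1.17 in CD40 day 2. All 4 CD40 day 2 ratios lay above both Kupffer ratios, and no test was made on these sums. The Psmd genes include the chaperones Psmd5 and Psmd9, which did not pass. Left out are the regulatory particle subunits Sem1 and Adrm1, which rose by 1.19 and 0.75 on the log2 scale. Sem1 averaged 958 CPM in Kupffer day 0 and 2180 CPM in CD40 day 2, and sums with it were not computed.

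**Figure D3:**
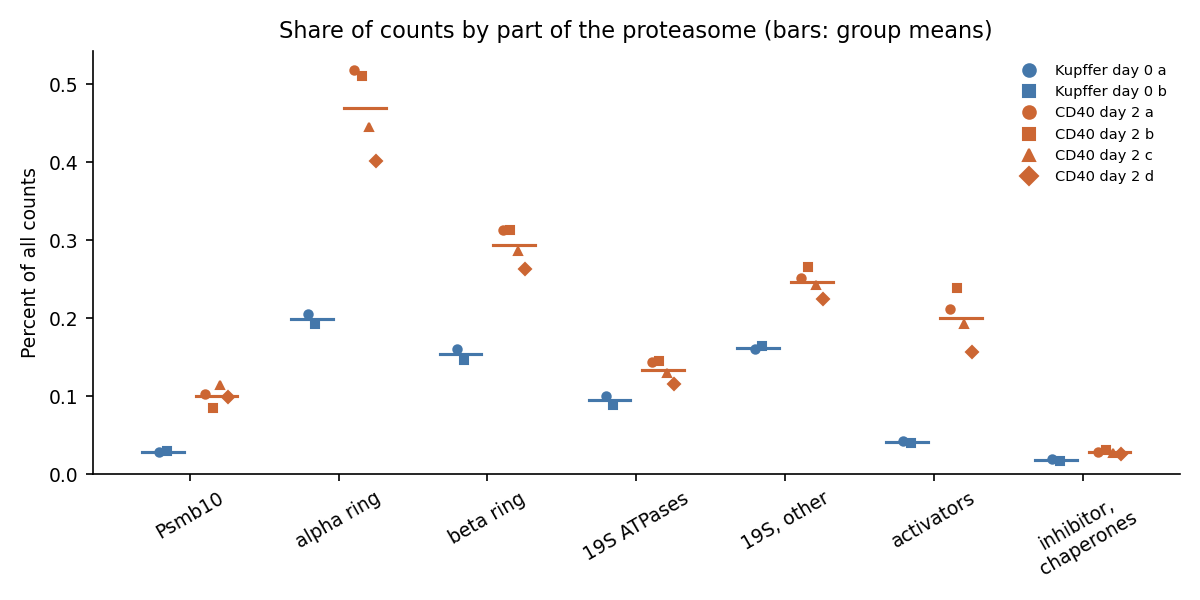
Percent of all counts taken by each part of the proteasome in each library of Kupffer day 0 (2, blue) and CD40 day 2 (4, orange), with bars at the group means. All CD40 day 2 libraries lie above both Kupffer day 0 libraries in each part, by a ratio of means from 1.41 for the ATPases to 4.91 for the activators, and library d is the lowest CD40 day 2 library in 6 of the 7 parts.

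The ATPases form the ring that unfolds substrates. Of 6 Psmc genes, 5 were called higher (83.3%, beside 23.2% of all genes), with a median log2 fold change of 0.58. Psmc2 was at 116 and 94.7 CPM in Kupffer day 0 and at 214, 221, 204 and 198 CPM in CD40 day 2 (0.98 ± 0.17, edgeR adjusted p = 0.00092). Psmc4 stood at 171 and 187 against 366, 376, 294 and 262 CPM (0.86 ± 0.2, edgeR adjusted p = 0.00472) and Psmc3 at 222 and 220 against 377, 366, 302 and 288 CPM (0.59 ± 0.18, edgeR adjusted p = 0.0176). Psmc5, at 152 and 116 against 192, 197, 183 and 174 CPM, passed narrowly (0.47 ± 0.17, edgeR adjusted p = 0.046, range over the alternatives 0.0248 to 0.313). Psmc1, at 152 and 130 against 207, 146, 203 and 169 CPM, did not pass (0.36, 95% interval -0.07 to 0.8, edgeR adjusted p = 0.143), but did without CD40 day 2 b (0.0273). The calls for these small changes rested on few libraries and on the choice of scaling, filter, test or depth. Psmc6 (0.57) lost its call in 9 of 14 alternatives and Psmc5 in 10, DESeq2 among them for both. Psmc3 lost its call in 4, library totals and thinned libraries among them. Without CD40 day 2 a or c 3 ATPase genes were called higher, beside 22.1% and 21.5% of all genes. Leaving out a Kupffer library leaves 1, and fewer ATPase genes were then called. The log2 fold changes of Psmc3, Psmc6 and Psmc5 were 0.59, 0.6 and 0.68 without Kupffer day 0 a. They were 0.59, 0.54 and 0.3 without Kupffer day 0 b. The call for Psmc4 was lost without Kupffer day 0 a (0.0644, range over the alternatives 0.000701 to 0.0644), and that for Psmc3 without either Kupffer library (0.108 and 0.0959, range 0.0107 to 0.254). The call for Psmc5 was lost without any 1 of 5 libraries, all but CD40 day 2 b.

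The Psmd genes were more mixed than the Psmc genes. Of 13, 6 rose (46.2%, beside 23.2% of all genes) and 7 did not pass, with log2 fold changes between -0.24 and 1.31. Without CD40 day 2 b 9 rose, beside 25.7% of all genes. Fewer than 6 rose without Kupffer day 0 a, which leaves 1 Kupffer library. Psmd14, the deubiquitinase that removes ubiquitin chains from substrates, was at 124 and 166 CPM in Kupffer day 0 and at 396, 427, 319 and 284 CPM in CD40 day 2 (1.31 ± 0.23, edgeR adjusted p = 0.000884). Psmd8, of the lid, stood at 303 and 313 against 682, 723, 710 and 748 CPM (1.22 ± 0.15, edgeR adjusted p = 0.000115), and here library d was the highest. Psmd13, also of the lid, stood at 40.2 and 39 against 100, 92, 85.6 and 70.9 CPM (1.12 ± 0.21, edgeR adjusted p = 0.00152). Psmd4, a ubiquitin receptor, Psmd11 and Psmd2 rose by 0.87, 0.72 and 0.59 on the log2 scale. The call for Psmd2 was lost in 7 of 14 alternatives, with DESeq2 (DESeq2 adjusted p = 0.0648) and library totals (edgeR adjusted p = 0.109) among them. Without Kupffer day 0 a Psmd11 and Psmd2 were not called (edgeR adjusted p = 0.123 and 0.382, ranges over the alternatives 0.00613 to 0.123 and 0.0194 to 0.382), and Psmd2 was also not called without CD40 day 2 c (0.0844).

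Psmd12, Psmd7 and Psmd6 stood at 0.46, 0.44 and 0.42 on the log2 scale, with no overlap between the groups and edgeR adjusted p = 0.0583, 0.0512 and 0.0615. Without CD40 day 2 b all 3 passed (0.044, 0.0328 and 0.0335), and without CD40 day 2 d Psmd12 and Psmd7 did (0.0439 and 0.0402). Upper quartile scaling also called all 3 (edgeR adjusted p = 0.0336, 0.0306 and 0.0354), and RLE size factors Psmd12 and Psmd7 (0.0438 and 0.0435). By limma-voom Psmd7 and Psmd6 passed (limma-voom adjusted p = 0.0348 and 0.0391). Their ranges over the alternatives were 0.0336 to 0.264, 0.0306 to 0.32 and 0.0335 to 0.395. Psmd3 was at 0.22 (edgeR adjusted p = 0.41). At the low end stood Psmd1, a large scaffold of the base, which was at 80.4 and 89.1 CPM in Kupffer day 0 and at 69.2, 66.5, 72.4 and 80.4 CPM in CD40 day 2 (-0.22, 95% interval -0.61 to 0.18, edgeR adjusted p = 0.32). Psmd5 and Psmd9 are chaperones that help to build the base, and neither passed. Psmd9 stood at 40.8 and 50.1 against 37.3, 38.2, 38.7 and 37.5 CPM (-0.24, 95% interval -0.69 to 0.21, edgeR adjusted p = 0.345), lower in every CD40 day 2 library, and Psmd5 at 29.3 and 22.3 against 27.3, 26.9, 25 and 23.2 CPM (-0.06, 95% interval -0.6 to 0.48, edgeR adjusted p = 0.858), with overlap.

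The chaperones that build the alpha ring went in different directions. Psmg4 was at 52.8 and 47.4 CPM in Kupffer day 0 and at 147, 147, 132 and 134 CPM in CD40 day 2 (log2 fold change 1.47 ± 0.18, edgeR adjusted p = 0.000107). Psmg3, its partner in a heterodimer, stood at 36.2 and 27.9 against 69.2, 73.6, 61.9 and 57.2 CPM (0.98 ± 0.22, edgeR adjusted p = 0.00385). Psmg2, which pairs with Psmg1, was the member that fell, at 54 and 47.4 against 27.3, 25.5, 27.3 and 20.8 CPM (-1.02 ± 0.22, edgeR adjusted p = 0.00309), with no overlap between the groups. Without Kupffer day 0 a it was not called (0.0572, range over the alternatives 0.00142 to 0.0572). Psmg1 is not analysed here. Psmf1, which encodes the inhibitor PI31, stood at 36.2 and 43.2 against 63.7, 72.1, 57.4 and 59.6 CPM (0.68 ± 0.21, edgeR adjusted p = 0.0189). It was not called in 5 of 14 alternatives, with DESeq2, library totals and thinned libraries among them. Its call was lost without Kupffer day 0 a (0.191) or Kupffer day 0 b (0.0515, range over the alternatives 0.0113 to 0.279).

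Within CD40 day 2 the family varied by library. Library d held the lowest CPM of the 4 for 28 of 41 members tested (68.3%), against 24% of all genes tested, and with library totals alone for 29 (70.7% against 25.8%). Library a was highest for 20 members (48.8% against 25.1%), but with library totals alone library b was, for 22 (53.7% against 33.3%). The members share a library, so these counts describe the 4 libraries. Irf7 and Cd40 also had their lowest CD40 day 2 value in d, while Irf1 and Lap3 had theirs in b and Tpp2 in c. Whether any of these genes bears on this order was not tested.

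Other genes of the pathway were taken from lists, whose counts stand beside 23.2% of all genes higher and 30.2% lower. Of 9 assembly factors and subunits without the Psm name, 4 rose (44.4%) and 1 fell (11.1%), with a median log2 fold change of 0.41. Pomp, the maturation factor of the core particle, was at 648 and 664 CPM in Kupffer day 0 and at 2050, 1990, 1740 and 1520 CPM in CD40 day 2 (1.48 ± 0.18, edgeR adjusted p = 0.00011). Sem1, a small lid subunit, stood at 943 and 973 against 2370, 2010, 2150 and 2190 CPM (1.19 ± 0.16, edgeR adjusted p = 0.000174). Adrm1, a ubiquitin receptor of the base, stood at 45.9 and 48.7 against 95.6, 89.1, 69.6 and 66.1 CPM (0.75 ± 0.22, edgeR adjusted p = 0.0179), a call lost without Kupffer day 0 a (0.139) or Kupffer day 0 b (0.0753, range over the alternatives 0.0119 to 0.139). The list held 2 calls higher without Kupffer day 0 b, where 15.4% of all genes were higher. The gene that fell was Akirin2, which helps to carry proteasomes into the nucleus (-0.66 ± 0.24, edgeR adjusted p = 0.0438). It was not called without any 1 of 5 libraries, all but CD40 day 2 a (range over the alternatives 0.0163 to 0.203).

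No gene of the list on control through Nfe2l1 passed as higher. Nfe2l1 is made at the endoplasmic reticulum, is released with the help of Vcp, Ngly1 and Ddi2, and switches on proteasome genes when the protease is short. Of 9 such genes 0 were higher and 2 lower by edgeR (22.2% lower, beside 30.2% of all genes, median log2 fold change -0.51). DESeq2 called 0 higher and 2 lower, and limma-voom 0 higher and 4 lower, where 21% and 22.5% of all genes were higher. At an unadjusted p under 0.05 by edgeR 0 were higher and 4 lower. The share of all genes at that threshold is not given here. Whether this list of 9 differs from all genes was not tested. The values are of RNA, and the release of Nfe2l1, a step of the protein, was not measured. Nfe2l1 itself was at 74.6 and 46 CPM in Kupffer day 0 and at 41.9, 43.9, 33.7 and 45.3 CPM in CD40 day 2, with no overlap (-0.6 ± 0.24, edgeR adjusted p = 0.0572). Nfe2l1 passed as lower with library totals (edgeR adjusted p = 0.0226), 10 counts in 4 libraries (edgeR adjusted p = 0.0286) and limma-voom (limma-voom adjusted p = 0.0481). Over the alternatives its log2 fold change ran from -0.87, without Kupffer day 0 b, to -0.17. The 2 that fell were Sel1l and Syvn1, of the ligase that tags proteins of the endoplasmic reticulum. Sel1l stood at 97 and 87.7 against 43.7, 39.6, 40.1 and 48.8 CPM (-1.1 ± 0.18, edgeR adjusted p = 0.000653). Syvn1 stood at 64.9 and 46 against 36.4, 26.9, 23.7 and 23.8 CPM (-1.05 ± 0.25, edgeR adjusted p = 0.00591) and was not called without Kupffer day 0 a (0.139, range over the alternatives 0.000912 to 0.139), which left 1 gene of the list lower.

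Ubiquitin genes and shuttle factors, which bring substrates to the protease, had 1 of 10 tested genes higher and 1 lower, both under the shares of all genes (23.2% and 30.2%), with a median log2 fold change of -0.01. Ubqln4, a shuttle factor, was at 18.9 and 30.6 CPM in Kupffer day 0 and at 10, 4.24, 8.19 and 6.55 CPM in CD40 day 2 (log2 fold change -1.65 ± 0.37, edgeR adjusted p = 0.00412), with no overlap between the groups. Ubqln2, of the same family, stood at 22.4 and 12.5 against 8.19, 17, 5.46 and 5.96 CPM with overlap (-1.18, 95% interval -2.23 to -0.14, edgeR adjusted p = 0.0562). Without CD40 day 2 b Ubqln2 passed as lower (edgeR adjusted p = 0.0076), which made 2 genes of the list lower. Library totals (edgeR adjusted p = 0.0354), every gene with 1 count (0.0175) and 10 counts in 4 libraries (0.0349) also called it lower. So did limma-voom (limma-voom adjusted p = 0.017). Over the alternatives its log2 fold change ran from -1.48 to -0.61. Uba1, the enzyme that activates ubiquitin, stood at 90.1 and 103 against 157, 144, 143 and 120 CPM (0.55 ± 0.18, edgeR adjusted p = 0.0277). The call for Uba1 was lost without Kupffer day 0 a or b (0.213 and 0.0752) and without CD40 day 2 a or c (0.0502 and 0.0625, range over the alternatives 0.0167 to 0.213). Without CD40 day 2 d 2 genes of the list were higher.

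Interferon signalling genes known to control the immunosubunits differed widely. Of 13, 6 rose (46.2%, beside 23.2% of all genes) and 1 fell (7.69%, beside 30.2%), with a median log2 fold change of 0.45. Without Kupffer day 0 b 3 rose, where 15.4% of all genes were higher. Irf7, a regulator of type I interferon genes, was at 291 and 269 CPM in Kupffer day 0 and at 2160, 2290, 1690 and 1520 CPM in CD40 day 2 (log2 fold change 2.77 ± 0.23, edgeR adjusted p = 8.52e-06). Nlrc5, the activator of MHC class I genes, stood at 15.5 and 13.9 against 52.8, 65.1, 42.8 and 42.3 CPM (1.73 ± 0.28, edgeR adjusted p = 0.000657). Irf1, a transcription factor known to induce the immunosubunits, stood at 626 and 780 against 740, 546, 827 and 583 CPM with overlap (-0.06, 95% interval -0.51 to 0.4, edgeR adjusted p = 0.838). The gene that fell was Jak1, a kinase of interferon receptors, at 990 and 1090 against 224, 184, 254 and 254 CPM (-2.18 ± 0.17, edgeR adjusted p = 5.69e-06).

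**Figure D4:**
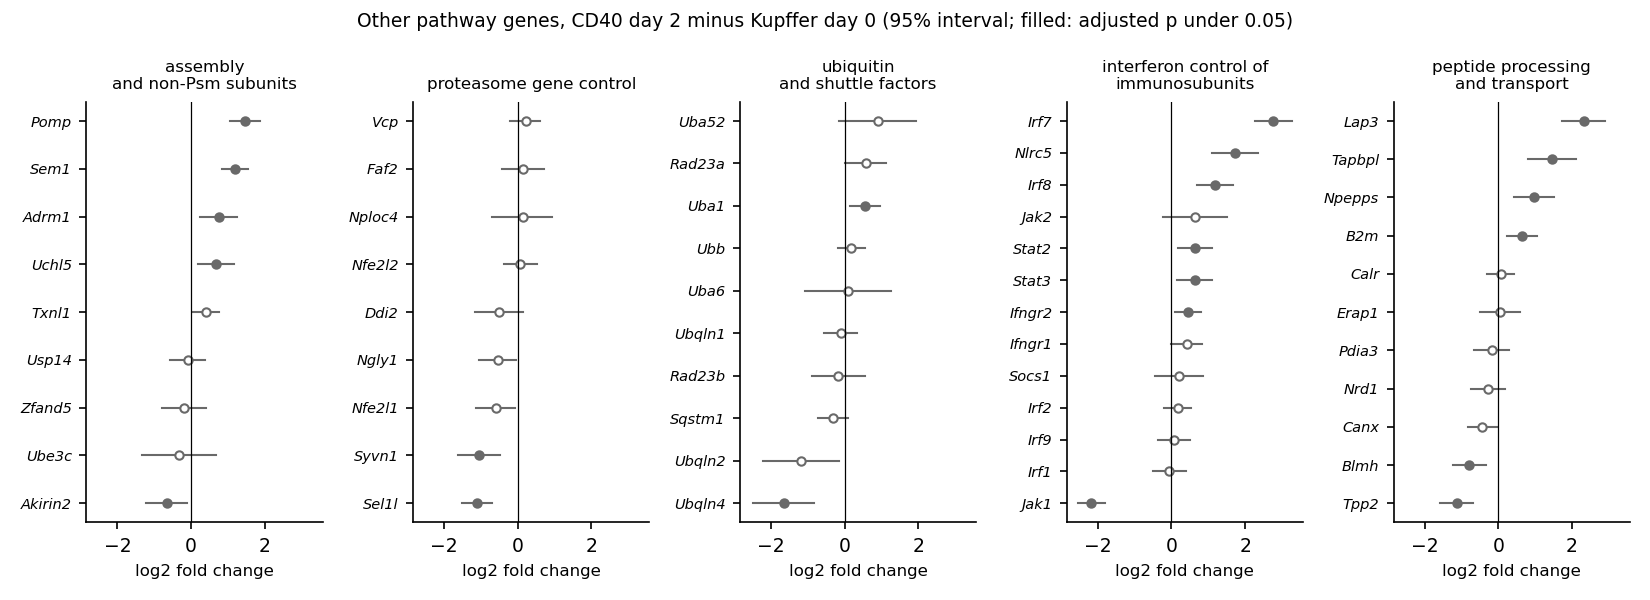
Log2 fold change, CD40 day 2 (n = 4) minus Kupffer day 0 (n = 2), with 95% intervals from the edgeR fit, for the tested genes of 5 pathway lists. Filled points passed the test. Irf7 lies at the right end and Jak1 at the left end of the interferon list, and no gene of the list on proteasome gene control passed as higher.

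Genes that trim and load peptides act downstream of the proteasome. Of 11 tested, 4 rose (36.4%, beside 23.2% of all genes) and 2 fell (18.2%, beside 30.2%), with a median log2 fold change of 0.05. Without Kupffer day 0 a 2 rose and 1 fell, where 14.4% of all genes were higher. Lap3, a leucine aminopeptidase, was at 25.3 and 30.6 CPM in Kupffer day 0 and at 137, 97.6, 157 and 152 CPM in CD40 day 2 (2.32 ± 0.26, edgeR adjusted p = 5.86e-05). Tapbpl, an editor of MHC class I peptides, stood at 31.6 and 27.9 against 95.6, 106, 79.7 and 54.8 CPM (1.46 ± 0.29, edgeR adjusted p = 0.00226). Tpp2, a large peptidase that acts on products of the proteasome, stood at 90.7 and 109 against 43.7, 52.3, 36.9 and 49.4 CPM (-1.13 ± 0.2, edgeR adjusted p = 0.00103). Tap1, of the peptide transporter, is not analysed here.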

How the data were processed

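The deposited table holds raw counts per gene symbol as the authors made them, whole numbers in 25919 rows and 12 columns. Poly(A) RNA was sequenced from the 3′ end after reverse transcription with primers that carry barcodes and molecular identifiers, per the labels' protocols. The submitters' processing notes name the build GRCm38.p6 and DESeq2 (1.22.2). Aligner, counter, annotation and whether identifiers were collapsed: not given in the sources used here. Column names carry a group but no replicate number, so letters a to d follow table order, as names only. The 6 columns of the other groups were not used, since their values seem sorted apart from the gene names, which was not examined again. Symbols turned into dates made up 17 rows (0.0846% to 0.151% of counts).

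The 6 libraries were fitted with edgeR 4.0.16 in R 4.3.3 (quasi-likelihood test, TMM, filterByExpr defaults, no block, two-sided), with Benjamini-Hochberg adjustment over 9852 genes and a threshold of 0.05. Each SE was taken as the size of the log2 fold change divided by the root of F. Library pairs within a group differed beyond sampling noise (chi-square divided by its degrees of freedom was 2.9 to 10.1). In simulated data for this comparison (9200 genes fitted), 0% of genes changed 1.5-fold, 40.8% of those changed 2-fold and 94% of those changed 4-fold were recovered. The simulation changed 49 or 50 genes at each fold and gave every gene the same dispersion, a measure of spread. In the data 53.4% of genes were called, Psmc5 at 1.38-fold among them, so these rates do not give the power in the data. Coordinates come from GENCODE for GRCm38 and promoters from RefSeq (GRCm38.p6). Alternatives, with limma 3.58.1 and DESeq2 1.42.0 among the tools, changed the scaling, filter, test, depth or libraries.

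Values library by library are given for the immunosubunit, Psmb5, Psmb7, the activators, chaperones and inhibitor, and in each other part for the 3 largest rises and the 2 lowest fold changes. Of each pathway list the 3 genes of lowest adjusted p are named, with Pomp, Nfe2l1, Irf1, Nlrc5 and Adrm1. Some genes of the lists are not reported here and do not enter their counts. Members, lists and rules were chosen with earlier results of these data known. Psmd5, Psma8, Akirin2, the neighbours of Psme1 and Psme2, and other genes outside these rules were named after their values were seen.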

Additional observations from a re-analysis of the deposited data

How the results depend on the processing

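No paired analysis was possible because the columns carry no replicate number. Under the 8 alternatives of scaling, filter, test and depth, 23 to 32 members were called higher, beside 11.8% to 25.3% of all genes tested. With 1 CD40 day 2 library left out 26 to 33 were, beside 21.5% to 25.7% of all genes. Without Kupffer day 0 a or b the members' median log2 fold change was 0.94 or 0.86. These shares of all genes also apply to the list counts called higher below, under the same settings. With library totals alone the median log2 fold change of all genes was -0.27 in place of -0.1, and 24 members were higher. Testing every gene with 1 count gave 2 members lower, 1 of them a Psma gene. With 1 library left out, 0 to 2 members, 0 to 1 Psma genes and 0 to 1 Psmf and Psmg genes were lower, and 1 to 6 Psmc genes higher. Psmc genes called higher numbered 2 with library totals and with thinned libraries, and 3 with every gene with 1 count, with at least 10 counts in 4 libraries and with DESeq2. Over all genes 3206 to 5514 were called with 1 library left out (1406 to 2551 higher, 1800 to 2963 lower). Of the assembly list 0 genes were lower with RLE size factors, upper quartile scaling, every gene with 1 count and DESeq2, and with 1 library left out 2 to 5 were higher and 0 to 1 lower. Of the interferon list 3 were higher with library totals and with 10 counts in 4 libraries, and 3 to 7 with 1 library left out. Of the gene control list 4 were lower with library totals, 10 counts in 4 libraries and limma-voom, 1 with thinned libraries, and 1 to 3 with 1 library left out. Of the ubiquitin list 0 were higher with library totals, 10 counts in 4 libraries and DESeq2, 3 were lower with library totals and 2 with every gene with 1 count, 10 counts in 4 libraries and limma-voom, and 0 to 2 were higher and 1 to 2 lower with 1 library left out. Of the peptide list 1 was lower with DESeq2 and with thinned libraries, and 2 to 4 were higher and 1 to 3 lower with 1 library left out. In the 200 bases nearest the start, 3 members in place of 5 held the interferon-stimulated response element core, and 3 in place of 5 the antioxidant core. Apart from fewer libraries or genes tested, the cause of these changes was not tested. The mean log2 ratio of Psmb10 to Psmb7 was 0.7 to 1.11 higher in CD40 day 2 with 1 library left out and 1.17 higher with thinned libraries. Psme3 and Psme4 had 8 to 34 counts per library, and whether more depth would change their calls was not tested.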
